A study of Oryza sativa with 9 samples.

Results

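Shoots of rice seedlings labelled osdreb2b knockout were compared directly with shoots labelled ossro1c knockout, after 2 d at 4 °C. Both genotypes are in the ZH11 background and were sampled at the stage of 4 leaves, so the cold treatment and the background are shared and no unchilled library enters. The comparison uses 6 of the 9 libraries of the series, 3 osdreb2b and 3 ossro1c, chosen by their genotype labels. The remaining 3 libraries are wild type. They enter the expression filter, the scaling and the shared estimate of spread, and are not used as a reference. The alleles, the number of lines behind each knockout and the number of plants per library are not given in the labels. The labels do not say that replicates were separate plants or pools, so the p-values here cover no more than the spread between these samples. Of 55801 loci in the count table, 26112 passed the expression filter and were compared.

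The design text of the series names OsSRO1c and OsDREB2B as partners in a complex that acts under cold stress. DREB2 proteins such as OsDREB2B carry an AP2/ERF domain and bind dehydration-responsive promoter elements. SRO proteins such as OsSRO1c share a domain with poly(ADP-ribose) polymerases and bind transcription factors. In chilled rice the related DREB1/CBF factors are rapidly induced, jasmonate and abscisic acid signalling change, and photosynthetic genes are commonly repressed. A direct comparison of both mutant labels shows where shoots labelled as lacking different partners of that complex differ from each other.

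The 6 libraries held from 58398026 to 69336224 counts, and 28026 to 29383 loci were detected in each. The labels separated on principal component 1, which held 65.3% of the variance. The next component, with 11.3%, set ossro1c replicate 3 (-75.2) apart from ossro1c replicates 1 (51.8) and 2 (27.02). The median SD of log2 CPM (counts scaled to library size) between replicates was 0.163 in osdreb2b and 0.249 in ossro1c, and 0.120 in ossro1c without replicate 3. The counts over all loci past the threshold are therefore also given without that library, as are the counts of list members where it changes them. The 15 loci with the most counts took 7.92% to 8.35% of counts in osdreb2b libraries and 5.06% to 6.01% in ossro1c libraries.

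The transcripts of the genes that the labels name were examined first, as a check of the labels. OsSRO1c (LOC_Os03g12820, chromosome 3) had 129, 134 and 138 CPM in libraries labelled osdreb2b, against 379, 415 and 451 CPM in libraries labelled ossro1c. OsDREB2B (LOC_Os05g27930, chromosome 5) had 319, 299 and 314 CPM in libraries labelled osdreb2b, against 65.9, 60.5 and 79.8 CPM in libraries labelled ossro1c. For both genes the groups did not overlap, and each transcript was higher in the libraries labelled as its own knockout. The log2 fold change, always osdreb2b minus ossro1c, was -1.63 for OsSRO1c (SE 0.07, adjusted p = 6.7e-10) and 2.18 for OsDREB2B (SE 0.10, adjusted p = 5.4e-10) in edgeR's quasi-likelihood test. A two-sided exact permutation test gave p = 0.1 for each, the smallest that 3 libraries against 3 can give. A transcript can persist in a knockout, so its level does not settle which libraries lack which protein. Whether the labels were exchanged was not tested, and an exchange would reverse every direction given below. The names osdreb2b and ossro1c below stand for the libraries carrying these labels, and every direction belongs to the labels as deposited.

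The other study genes differed less. OsDREB2A (LOC_Os01g07120), the close paralog of OsDREB2B, had 8.03, 9.31 and 9.03 CPM in osdreb2b libraries, against 17.3, 20.6 and 14.96 CPM in ossro1c libraries, and was lower in osdreb2b (log2 -1.01, SE 0.12, adjusted p = 1.3e-05). COLD1 (LOC_Os04g51180), a membrane protein of cold sensing named in the title of the series, had 31.3, 32.8 and 32.5 CPM in osdreb2b libraries, against 29.7, 31.4 and 29.1 CPM in ossro1c libraries. Its difference of 0.10 (95% interval -0.07 to 0.27, adjusted p = 0.32) did not pass. RGA1 (LOC_Os05g26890), the G protein alpha subunit known to act with COLD1, differed by 0.15 (-0.03 to 0.33, adjusted p = 0.16) and did not pass either.

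**Figure D1:**
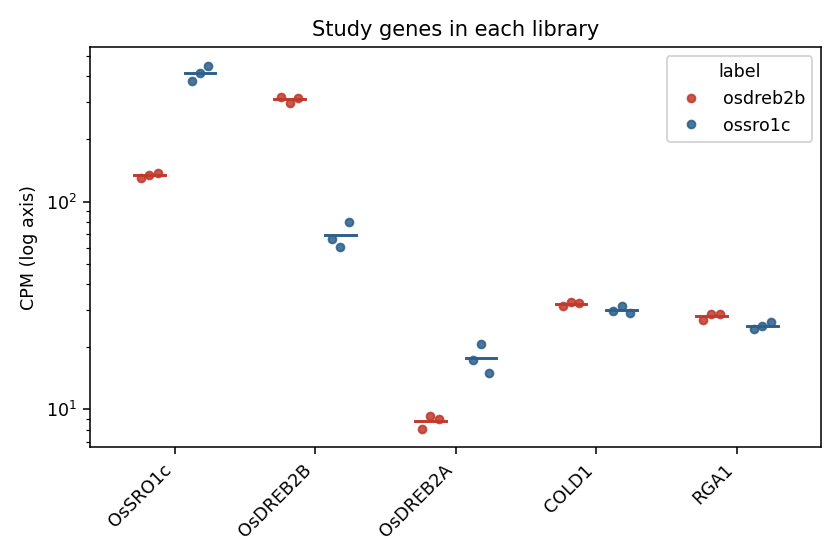
Level of 5 study genes in each library (CPM scaled by TMM, logarithmic axis; points are libraries, lines are means of 3). OsSRO1c is lower and OsDREB2B higher in libraries labelled osdreb2b, with no overlap, while COLD1 and RGA1 lie close together in both labels.

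Across all tested loci, 12147 of 26112 (46.5%) passed an adjusted p of 0.05. Of these, 5974 were higher in osdreb2b (22.9% of those tested) and 6173 lower (23.6%), and 2535 (9.71%) and 2911 (11.1%) did so by at least 1 on the log2 scale. The median log2 fold change was -0.017 and the median absolute one 0.54. Without ossro1c replicate 3, 13097 loci passed, 6625 higher and 6472 lower, of which 2670 and 2744 by at least 1 on the log2 scale. When raw library totals replaced TMM scaling, the median moved to -0.196, and 4398 loci were higher and 8054 lower (35.3% higher, against 49.2%), so list medians near 0 depend on the scaling. Differences reached 3 on the log2 scale at 386 loci that were higher and 473 that were lower, and without ossro1c replicate 3 at 462 and 478. The most abundant loci were called most often: 86.7% of 83 loci above 1000 CPM passed, 50 higher and 22 lower, whereas of 6479 loci below 1 CPM 408 were higher and 740 lower.

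**Figure D2:**
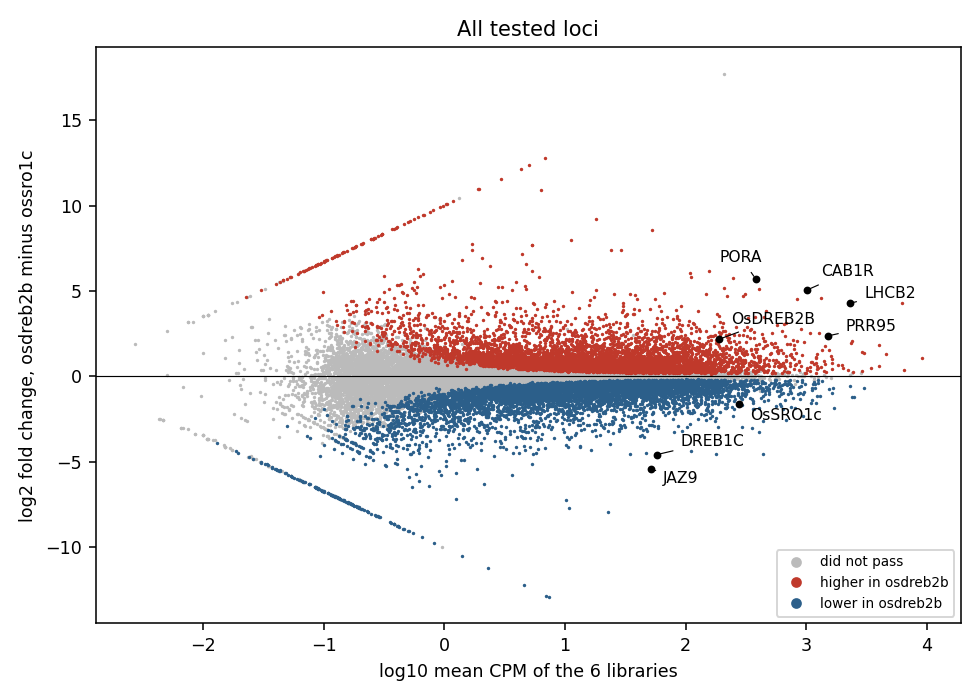
Log2 fold change (osdreb2b minus ossro1c) of each tested locus against the log10 of its mean CPM over the 6 libraries; colours mark loci past an adjusted p of 0.05, and 52 tested loci at 0 in all 6 libraries are not drawn. Points on the straight outer lines are loci at 0 in one label, whose fitted values are no bound; PORA, CAB1R and LHCB2 stand high at high abundance, and JAZ9 and DREB1C low.

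The gene lists hold 453 loci in 29 lists, of which 299 could be named (298 after a check of the name against a reference gene table, besides OsSRO1c). Of these 299, 277 passed the expression filter, and 103 were higher, 108 lower and 66 did not pass the threshold. Members were chosen as well-known genes, with earlier results of these data known, and most are abundant. Their share of 76.2%, against 46.5% of all tested loci, is to be read beside that choice and the rise of calls with abundance. In 215 of the 277 the 3 libraries of one label did not overlap with the 3 of the other, which was so for 54.9% of all tested loci. Counts below are of named members that were tested, and each list is also counted over all its listed loci, names that could not be checked included.

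**Figure D3:**
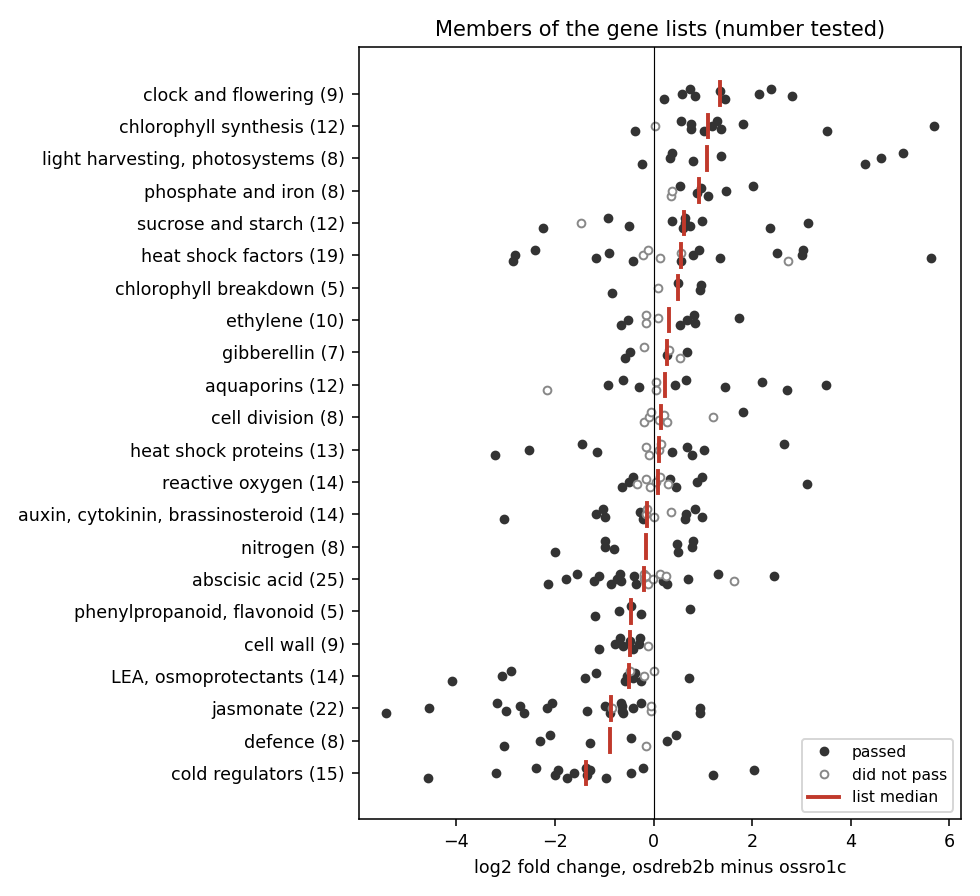
Log2 fold change (osdreb2b minus ossro1c) of the named members of each list with at least 5 tested members, without the study genes. Lists are ordered by their median (vertical bars), and filled points passed an adjusted p of 0.05. Clock, chlorophyll synthesis and photosystem genes lie mostly to the right of 0, and cold regulators, defence and jasmonate genes mostly to the left.

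Genes of the light reactions were mostly higher in osdreb2b, and the antenna genes differed most. Of 8 light-harvesting and photosystem genes 7 were higher and 1 lower, with a median log2 fold change of 1.08. CAB1R (LOC_Os09g17740), which encodes a chlorophyll a/b binding protein of the antenna, had 2039, 1814 and 2017 CPM in osdreb2b libraries, against 51.5, 49.8 and 75.8 CPM in ossro1c libraries. CAB2R (LOC_Os01g41710), of the same family, had 2679, 2332 and 2679 CPM in osdreb2b libraries, against 82.4, 94.02 and 139 CPM in ossro1c libraries. LHCB2 (LOC_Os03g39610), of the photosystem II antenna, had 4442, 4082 and 4539 CPM in osdreb2b libraries, against 184, 208 and 280.4 CPM in ossro1c libraries. In all 3 genes the labels were far apart, and ossro1c replicate 3 was the highest of its label. The folds were 33.2 for CAB1R, 24.4 for CAB2R and 19.4 for LHCB2 (log2 5.05, SE 0.15, 4.61, SE 0.17, and 4.28, SE 0.14). These genes belong to a family with near-identical copies, among which the counting could split reads, so single members are uncertain. PSAH (LOC_Os05g48630), a photosystem I subunit gene, had 1183, 1166 and 1238 CPM in osdreb2b libraries, against 432, 375 and 584 CPM in ossro1c libraries (log2 1.37, adjusted p = 6.5e-07). Electron carriers were higher by less, with PETE, the plastocyanin gene, at 0.80 and PETC, the Rieske protein gene, at 0.38. FNR1 (LOC_Os06g01850), the gene of ferredoxin-NADP reductase, was the lower one, at -0.24 (adjusted p = 0.015), and did not pass without osdreb2b replicate 2 (adjusted p = 0.077). Summed over the 8 genes, the level was 14057, 12956 and 14212 CPM in osdreb2b libraries, against 3412, 3460 and 4384 CPM in ossro1c libraries. Over all listed loci 26 of 31 were higher and 2 lower.

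Carbon fixation followed at smaller folds. Of 4 genes 3 were higher and none lower (median 0.87; with raw totals 1 was lower), and over all listed loci 12 of 13 were higher. RBCS2 (LOC_Os12g17600), a Rubisco small subunit gene with close copies, had 12480, 12030 and 12530 CPM in osdreb2b libraries, against 5103, 4923 and 7259 CPM in ossro1c libraries, a 2.14-fold difference. FBA (LOC_Os11g07020), the gene of a plastid aldolase of the Calvin cycle, was 2.48-fold higher in osdreb2b (6492 ± 236 CPM, against 2618 ± 185 CPM in ossro1c; SD, n = 3 each). RCA (LOC_Os11g47970), which encodes the activase that keeps Rubisco active, was 1.56-fold higher. FBP1 (LOC_Os03g16050), a fructose-bisphosphatase gene, overlapped between the labels and differed by -0.08 (95% interval -0.28 to 0.13, adjusted p = 0.55), passing with raw totals alone (-0.25).

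Genes of chlorophyll synthesis were higher in osdreb2b in 10 of 12 cases and lower in 1, with a median of 1.11 (13 of 16 and 1 over all listed loci). PORA (LOC_Os04g58200), the gene of a light-dependent protochlorophyllide reductase, had 758, 727 and 769.9 CPM in osdreb2b libraries, against 11.1, 13.2 and 19.6 CPM in ossro1c libraries. Its fold of 51.3 (log2 5.68, SE 0.18, adjusted p = 6.1e-11) was the largest among all named genes with at least 5 CPM in the higher label. PORB (LOC_Os10g35370), of the same enzyme family, had 351, 351 and 342 CPM in osdreb2b libraries, against 31.4, 26.1 and 33.4 CPM in ossro1c libraries (log2 3.52, SE 0.09). The subunits of magnesium chelatase, the first enzyme committed to chlorophyll, were higher together: CHLH by 1.37, CHLI by 1.19 and CHLD by 0.76. DVR, which encodes divinyl reductase, was higher by 1.81, CAO1, which encodes the oxygenase that makes chlorophyll b, by 1.28, and GSA, of the earlier aminolevulinate step, by 1.03. CHLG (LOC_Os05g28200), the chlorophyll synthase gene at the end of the pathway, was the lower one, at -0.38 (SE 0.08, adjusted p = 0.0021). Among the GLK factors, which activate photosynthetic genes, GLK1 (LOC_Os06g24070) was higher by 0.75, while GLK2 (LOC_Os01g13740) had 375, 374 and 387 CPM in osdreb2b libraries, against 348, 368 and 395 CPM in ossro1c libraries, and did not pass (0.03, 95% interval -0.11 to 0.17). Among chlorophyll breakdown genes, 3 of 5 were higher and 1 lower (median 0.49), but over all listed loci 3 of 9 were higher and 2 lower (median 0.04). NYC1, a chlorophyll b reductase gene, was higher by 0.97, NOL, its partner, by 0.94, and the lower one was SGR, the stay-green magnesium dechelatase gene, at -0.85.

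**Figure D4:**
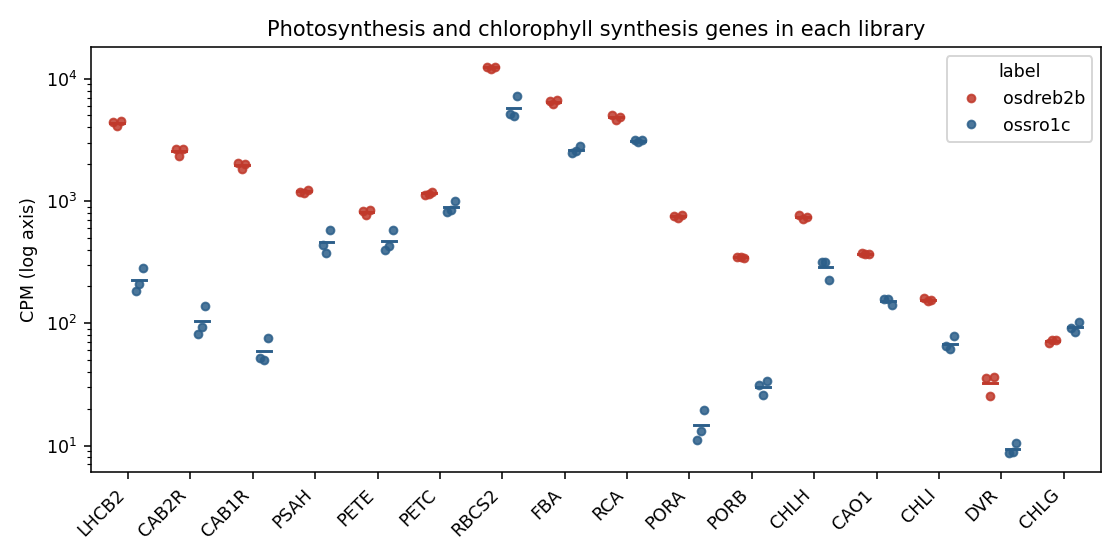
Levels of photosynthesis and chlorophyll synthesis genes in each library (CPM scaled by TMM, logarithmic axis; points are libraries, lines are means of 3). The genes drawn are a selection from the lists. All of them but CHLG are higher in osdreb2b, and the gap between the labels is widest for PORA, CAB1R, CAB2R, LHCB2 and PORB. FNR1, which was lower, and FBP1 and GLK2, which did not pass, are not drawn.

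Markers of other cell types were read in the same libraries, since in bulk shoots fewer cells of a type and less RNA per cell cannot be told apart. All 4 named shoot markers, RBCS2, RCA, LHCB2 and CAB2R, were higher in osdreb2b, as given above. LSI1 (LOC_Os02g51110), which encodes a silicon channel of roots, had 8.49, 10.4 and 11.8 CPM in osdreb2b libraries, against 15.8, 16.94 and 19.8 CPM in ossro1c libraries, and was lower (log2 -0.78, adjusted p = 0.00088). It was the 1 tested root marker of 2 that could be named, and 1 further listed locus, under 0.3 CPM in all 6 libraries, did not pass (log2 0.95, adjusted p = 0.59). Of 8 genes of dividing cells, CDKB2 (LOC_Os08g40170), a mitotic kinase gene, was higher in osdreb2b, with 24.5, 28.4 and 28.9 CPM, against 6.52, 7.53 and 9.17 CPM in ossro1c libraries. The other 7 did not pass, the list median was 0.15 (-0.03 with raw totals), over all listed loci 1 of 10 was higher and 2 lower, and the replication genes PCNA and MCM2 were below 4 CPM in all 6 libraries. The summed level of the 8 genes ran from 53.0 to 60.7 CPM in osdreb2b and from 35.6 to 40.5 CPM in ossro1c. Without CDKB2 the sum of the other 7 overlapped, at 27.7 to 32.2 CPM in osdreb2b and 26.4 to 34.0 CPM in ossro1c. Of 2 named seed storage genes that were tested, 1 was lower in osdreb2b and none higher. The lower one, the glutelin gene GLUA2, was at 3.93 to 5.25 CPM in osdreb2b and 6.98 to 7.99 CPM in ossro1c (log2 -0.71, adjusted p = 0.010). It was not past the threshold without osdreb2b replicate 3. The part of cell composition in the results here was not tested. ACT1, an actin gene often used as a standard, had 58.9, 58.7 and 54.5 CPM in osdreb2b libraries, against 62.2, 59.5 and 77.99 CPM in ossro1c libraries, and did not pass (-0.21, adjusted p = 0.092), but passed under 5 alternatives, among them that without ossro1c replicate 2 (-0.29). Over all 4 listed standard genes 1 was higher and none lower.

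Every named clock and flowering gene that was tested was higher in osdreb2b, 9 of 9, with a median of 1.34; with raw library totals 8 were, GI being the exception. Over all listed loci 13 of 14 were higher and 1 lower, with a smaller median of 0.83. In plants the clock rests on morning factors such as LHY, pseudo-response regulators (PRR) that repress them through the day, and an evening complex of LUX and ELF3. PRR95 (LOC_Os09g36220) had 2470, 2553 and 2567 CPM in osdreb2b libraries, against 503, 526 and 435 CPM in ossro1c libraries (log2 2.37, SE 0.08, adjusted p = 4.2e-11). PRR1 (LOC_Os02g40510), the rice counterpart of Arabidopsis TOC1, had 365, 365 and 367 CPM in osdreb2b libraries, against 92.5, 85.8 and 70.2 CPM in ossro1c libraries (log2 2.14). LUX (LOC_Os01g74020) had 219, 223 and 229 CPM in osdreb2b libraries, against 35.3, 35.6 and 25.7 CPM in ossro1c libraries (log2 2.80, SE 0.11). The osdreb2b replicates lay close together in these 3 genes, and ossro1c replicate 3 was the lowest library of all. PRR73 was higher by 1.45, PRR37 by 0.84, ELF3 by 0.73 and the morning gene LHY (LOC_Os08g06110) by 0.58. Morning and evening genes were thus higher together. HD1 (LOC_Os06g16370), the CONSTANS-like regulator of flowering, had 11.5, 11.9 and 12.9 CPM in osdreb2b libraries, against 4.58, 5.04 and 4.72 CPM in ossro1c libraries. GI, a large clock protein gene, differed by 0.21 (adjusted p = 0.032), and did not pass under 8 of the 14 alternatives, among them those without osdreb2b replicate 2 or 3. The labels give no time of day at harvest, so its part in the clock genes was not tested. Of 3 phytochrome genes, for red light receptors, PHYC (0.90) and PHYB (0.54) were higher, and over all listed photoreceptor loci 5 of 9 were higher and 2 lower. PHYA was at 32.5, 36.4 and 32.3 CPM in osdreb2b libraries, against 30.4, 31.3 and 24.7 CPM in ossro1c libraries, which did not pass (adjusted p = 0.095).

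Cold regulators ran the other way. Of 15 named genes 2 were higher and 13 lower in osdreb2b (median -1.38), and over all listed loci 2 were higher and 22 lower of 28. The DREB1/CBF family, AP2/ERF factors that switch on the cold response, was split. DREB1C (LOC_Os06g03670) had 4.30, 4.72 and 4.82 CPM in osdreb2b libraries, against 98.8, 94.8 and 137 CPM in ossro1c libraries, a 23.9-fold difference (log2 -4.58, SE 0.16, adjusted p = 6.7e-11). DREB1G (LOC_Os02g45450) had 4.30, 2.23 and 3.25 CPM in osdreb2b libraries, against 27.7, 28.2 and 34.2 CPM in ossro1c libraries, a 9.19-fold difference. Both were far below the ossro1c range in every osdreb2b library. DREB1B, DREB1H and DREB1A have neighbouring locus identifiers on chromosome 9 and did not share a direction. DREB1B (LOC_Os09g35010) had 91.7, 81.7 and 94.7 CPM in osdreb2b libraries, against 186, 189 and 286 CPM in ossro1c libraries (log2 -1.30, adjusted p = 3.8e-06). DREB1H (LOC_Os09g35020) had 15.7, 14.7 and 15.6 CPM in osdreb2b libraries, against 4.20, 2.39 and 4.57 CPM in ossro1c libraries (log2 2.04, adjusted p = 3.9e-06). DREB1A (LOC_Os09g35030) had 118, 119 and 129.7 CPM in osdreb2b libraries, against 47.7, 44.4 and 67.2 CPM in ossro1c libraries (log2 1.20, adjusted p = 3.6e-06). The first of these neighbours was thus lower in osdreb2b and the others higher, with no overlap in any.

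Regulators outside that family were lower in osdreb2b in every named case. NAC6 (LOC_Os01g66120), a NAC factor of stress tolerance, had 287, 254 and 264 CPM in osdreb2b libraries, against 998, 978 and 1086 CPM in ossro1c libraries (log2 -1.93, SE 0.07). MYB4 (LOC_Os04g43680), a MYB factor known from freezing tolerance, had 56.3, 64.6 and 60.96 CPM in osdreb2b libraries, against 218, 234 and 279 CPM in ossro1c libraries (log2 -2.01). MYB2, WRKY76, NAC5 and MYB3R-2, further factors of stress tolerance, were lower by log2 fold changes of -1.76, -1.62, -1.35 and -0.97. Of the mitogen-activated protein kinases, MPK3 (LOC_Os03g17700) stood at -1.38 and MPK6 at -0.45. MYBS3, a repressor of DREB1 genes, was the nearest to 0, at -0.22 (adjusted p = 0.011), and did not pass without osdreb2b replicate 2.

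Jasmonate genes were mostly lower in osdreb2b, with 17 of 22 lower and 2 higher (median -0.87; 19 of 26 and 2 over all listed loci). JAZ proteins repress jasmonate responses until the receptor COI1 marks them for breakdown, and JAZ genes are themselves induced by jasmonate. JAZ9 (LOC_Os03g08310) had 1.67, 2.82 and 2.56 CPM in osdreb2b libraries, against 90.8, 91.0 and 122 CPM in ossro1c libraries, a 43.2-fold difference (log2 -5.43, the most negative among named genes, SE 0.19, adjusted p = 7.2e-11). Its neighbours JAZ11 (LOC_Os03g08320) and JAZ10 (LOC_Os03g08330) were lower as well. JAZ11 had 20.9, 17.89 and 16.98 CPM in osdreb2b libraries, against 155, 147 and 201 CPM in ossro1c libraries, and JAZ10 had 81.9, 79.7 and 77.7 CPM, against 527, 537 and 840.2 CPM. On chromosome 10, JAZ13 (LOC_Os10g25230) had 2.33, 3.197 and 2.94 CPM in osdreb2b libraries, against 57.3, 64.8 and 76.7 CPM in ossro1c libraries (log2 -4.55), and JAZ12 (LOC_Os10g25290) differed by -2.63. In these 5 genes every osdreb2b library was below every ossro1c library, and ossro1c replicate 3 was the highest.

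The other JAZ genes ranged from -2.71 for JAZ2, which was under 3 CPM in all 6 libraries, to -0.06 for JAZ3, which did not pass except with raw totals. JAZ4 (LOC_Os09g23660) had 349.7, 187 and 358 CPM in osdreb2b libraries, against 544, 549 and 516 CPM in ossro1c libraries. Replicate 2 of osdreb2b was low, and the difference of -0.85 (95% interval -1.58 to -0.11, adjusted p = 0.060) did not pass, though it did in DESeq2 (adjusted p = 0.024), on the 6 libraries alone (0.0098), with raw totals (0.032) and with a filter at 1 CPM (0.042). Synthesis genes were lower too: AOS2 and AOS1, for allene oxide synthase, by log2 fold changes of -1.36 and -0.98, AOC, for the cyclase that follows, by -0.65, and OPR7, for the reductase of the peroxisomal step, by -0.62. JAR1, whose product joins jasmonate to isoleucine, was at -0.66. The 2 genes that were higher were receptor genes. COI1B (LOC_Os05g37690) had 399.5, 376 and 406 CPM in osdreb2b libraries, against 205, 191 and 221 CPM in ossro1c libraries (log2 0.94), and COI2 (LOC_Os03g15880) differed by 0.95. COI1A did not pass (-0.06, adjusted p = 0.60) except with raw totals.

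**Figure D5:**
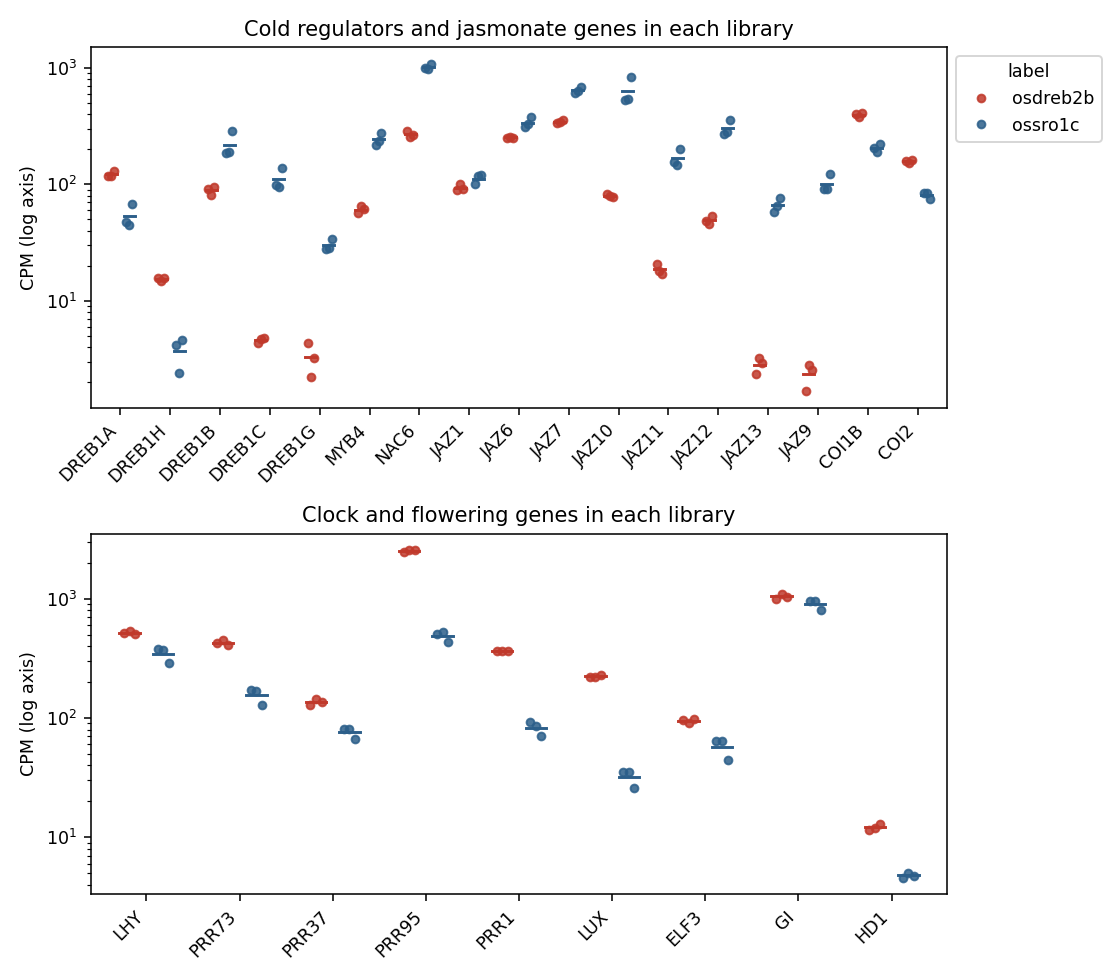
Levels of cold regulator and jasmonate genes (upper plot) and of clock and flowering genes (lower plot) in each library (CPM scaled by TMM, logarithmic axes; points are libraries, lines are means of 3). DREB1A, DREB1H, COI1B and COI2 are higher in osdreb2b and the other genes of the upper plot lower, while all clock and flowering genes are higher.

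Of 25 abscisic acid genes 5 were higher and 11 lower (median -0.19; 7 higher and 11 lower without ossro1c replicate 3, and 3 higher and 15 lower with raw totals). Over all listed loci 8 of 34 were higher and 14 lower. ABA1 (LOC_Os04g37619), the gene of zeaxanthin epoxidase at an early step of synthesis, had 452, 467 and 472 CPM in osdreb2b libraries, against 85.2, 93.1 and 77.7 CPM in ossro1c libraries (log2 2.44, SE 0.08, adjusted p = 3.4e-11). NCED3, whose product makes the later cleavage, was lower, with a log2 fold change of -0.39. Of the hydroxylases that break the hormone down, ABA8ox2 was higher (1.31) and ABA8ox1 lower (-0.66). Phosphatases of the PP2C group, which hold the pathway off, were lower in 6 cases, from PP2C50 at -0.35 to PP2C68 at -1.55. Not every tested PP2C gene was lower: PP2C49 did not pass, except under 1 of the 14 alternatives. bZIP23 (LOC_Os02g52780), a transcription factor of abscisic acid responses, had 41.2, 40.9 and 37.6 CPM in osdreb2b libraries, against 183, 166 and 178 CPM in ossro1c libraries (log2 -2.14, SE 0.08). Among the SAPK kinases SAPK9 was higher (0.69) and SAPK1 lower (-1.11), and the abundant SAPK2, at 682, 712 and 666 CPM in osdreb2b libraries, against 587, 576 and 717 CPM in ossro1c libraries, did not pass (adjusted p = 0.21); it did without ossro1c replicate 3 (log2 0.24).

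Dehydrins, late embryogenesis abundant (LEA) proteins and osmoprotectant enzymes, which protect cells that lose water, had 10 of 14 genes lower in osdreb2b and 1 higher (median -0.51; 13 of 18 and 2 over all listed loci). DIP1 (LOC_Os02g44870), a dehydrin gene, had 379.7, 354 and 371 CPM in osdreb2b libraries, against 864, 927 and 1134 CPM in ossro1c libraries (log2 -1.40). LEA3-2 (LOC_Os03g20680) was 8.46-fold lower, at 2.03 ± 0.433 CPM in osdreb2b and 17.3 ± 2.48 CPM in ossro1c (SD, n = 3 each). The trehalose phosphatase genes parted: TPP2 (LOC_Os10g40550) had 13.2, 15.1 and 13.5 CPM in osdreb2b libraries, against 103, 104 and 105 CPM in ossro1c libraries (log2 -2.90, SE 0.08), whereas TPP1 (LOC_Os02g44230) had 369, 363 and 366 CPM, against 223, 210.1 and 236 CPM (log2 0.71). SALT, a salt-induced lectin gene, had 20.1, 19.4 and 18.2 CPM in osdreb2b libraries, against 18.6, 16.7 and 22.3 CPM in ossro1c libraries, and did not pass (95% interval -0.25 to 0.26).

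Heat shock protein genes showed no shared direction, with 5 of 13 higher and 4 lower (median 0.10, and -0.08 with raw totals or without ossro1c replicate 3; 6 of 16 and 5 over all listed loci). HSP18.0 (LOC_Os01g08860), a small heat shock protein gene, had 16.6, 19.4 and 21.1 CPM in osdreb2b libraries, against 2.02, 3.22 and 3.81 CPM in ossro1c libraries (log2 2.65, adjusted p = 4.2e-08). HSP23.2 (LOC_Os04g36750), of the same class, had 1.11, 0.295 and 0.633 CPM in osdreb2b libraries, against 7.06, 4.45 and 7.64 CPM in ossro1c libraries (log2 -3.22). BIP1 (LOC_Os02g02410), the chaperone gene of the endoplasmic reticulum, had 92.3, 88.9 and 85.5 CPM in osdreb2b libraries, against 231, 232 and 267 CPM in ossro1c libraries, and HSP101, a disaggregase gene, was lower, with a log2 fold change of -1.14. The heat shock factors, which bind heat shock elements, had 8 of 19 higher and 6 lower (median 0.55, but 0.10 on the 6 libraries alone; 9 and 6 of 20 without ossro1c replicate 3; 8 and 7 of 21, median 0.13, over all listed loci). HSFC1B (LOC_Os01g53220) had 189.8, 171 and 199.9 CPM in osdreb2b libraries, against 20.6, 19.7 and 28.8 CPM in ossro1c libraries (log2 3.02, SE 0.13). Its relatives HSFC2A and HSFC2B of the same C class were lower instead. HSFC2A (LOC_Os02g13800) had 13.2, 11.8 and 13.95 CPM in osdreb2b libraries, against 83.8, 76.7 and 115 CPM in ossro1c libraries (log2 -2.82), and HSFC2B (LOC_Os06g35960) differed by -2.86. HSFA2C (LOC_Os10g28340) was higher by 2.50, HSFA4D lower at -2.40, and HSFA1, at 126 to 147 CPM in all 6 libraries, did not pass (0.13, adjusted p = 0.16).

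Reactive oxygen enzymes had 5 of 14 genes higher and 3 lower (median 0.09; -0.09 with raw totals, where 3 were higher and 6 lower; 7 higher and 3 lower without ossro1c replicate 3). Over all listed loci 8 of 20 were higher and 5 lower. CATA (LOC_Os02g02400), a catalase gene, had 1230, 1195 and 1211 CPM in osdreb2b libraries, against 132, 137 and 150.0 CPM in ossro1c libraries, an 8.68-fold difference (log2 3.12, SE 0.07, adjusted p = 3.1e-12). CATB (LOC_Os06g51150), another catalase gene, was higher by 0.87. APX8, a chloroplast ascorbate peroxidase gene, had 657, 639.8 and 657 CPM in osdreb2b libraries, against 307, 319 and 366 CPM in ossro1c libraries, and APX1 and APX4, of other compartments, were lower by log2 fold changes of -0.50 and -0.41. SODCC1, a copper/zinc superoxide dismutase gene, had 135, 128 and 127 CPM in osdreb2b libraries, against 94.2, 83.1 and 142 CPM in ossro1c libraries. Its ossro1c replicate 3 was the highest of all 6, and the difference passed without that library (log2 0.55) but not with it (0.29, adjusted p = 0.12).

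Of 8 defence genes 5 were lower in osdreb2b and 2 higher (median -0.88). Over all listed loci the split was weaker, with 9 of 19 lower and 4 higher (median -0.26). WRKY71 (LOC_Os02g08440), a WRKY factor of defence and hormone signalling, had 324, 298 and 330.3 CPM in osdreb2b libraries, against 1544, 1437 and 1719 CPM in ossro1c libraries (log2 -2.30, SE 0.08, adjusted p = 6.1e-11). WRKY24 (LOC_Os01g61080) had 71.5, 73.8 and 71.6 CPM in osdreb2b libraries, against 297, 314 and 324 CPM in ossro1c libraries (log2 -2.11). NPR1, the regulator of salicylic acid responses, was at -0.46 and PBZ1, a pathogenesis-related protein gene, at -1.30. The 2 that were higher were the chitinase gene CHT1 (0.46) and the chitin receptor gene CERK1 (0.27). Neither passed with raw totals, with a filter at 1 CPM or on the 6 mutant libraries alone. CHT1 also did not pass without osdreb2b replicate 1 or 3 or ossro1c replicate 1 or 2. CEBIP, which encodes a chitin-binding receptor, was at 182 to 189.9 CPM in osdreb2b and 194 to 220.2 CPM in ossro1c and missed the threshold (adjusted p = 0.084), but passed under 6 of the alternatives, among them that without ossro1c replicate 2 (-0.20). Phenylpropanoid and flavonoid genes had 4 of 5 lower and 1 higher (median -0.46), and over all listed loci 12 of 14 lower and 1 higher. CHS1 (LOC_Os11g32650), the chalcone synthase gene, was lower, with a log2 fold change of -0.71, while CHI, the gene of the isomerase that follows it, was higher by 0.74. Only 4 of 9 named diterpene genes passed the expression filter; CYP76M8, of phytoalexin synthesis, was the 1 that was higher, at under 1.5 CPM in every library, and over all listed loci 1 of 5 was higher and 1 lower.

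Hormone genes of growth had no shared direction. Of 7 gibberellin genes 2 were higher and 2 lower (4 and 3 of 12 over all listed loci): the receptor gene GID1 (-0.58) and GID2 (-0.48), of the F-box protein that removes the DELLA repressor, were lower, and SLR1 (0.27), the DELLA gene, and KO2 (0.68), a synthesis gene, were higher, SLR1 not with raw totals. Ethylene genes had 5 of 10 higher and 2 lower (median 0.30; 5 and 3 without ossro1c replicate 3; 7 and 2 of 14 over all listed loci). The receptor gene ETR3 (LOC_Os02g57530) had 134, 125 and 130.3 CPM in osdreb2b libraries, against 38.6, 39.6 and 38.1 CPM in ossro1c libraries (log2 1.74, SE 0.07). ERS2 and ETR2, further receptor genes, and EIN2, which carries the signal on, were higher by 0.82, 0.53 and 0.68. The receptor gene ERS1 did not share this direction: it did not pass, but was lower past the threshold under 6 of the 14 alternatives. ACO1, of ethylene synthesis, was lower at -0.53. The list of auxin, cytokinin and brassinosteroid genes had 4 of 14 higher and 6 lower (median -0.14, and 0.05 without ossro1c replicate 3; 4 and 7 of 15 over all listed loci). GH3.8 (LOC_Os07g40290), whose product conjugates auxin, had 3.802, 5.26 and 4.595 CPM in osdreb2b libraries, against 29.97, 41.9 and 39.9 CPM in ossro1c libraries (log2 -3.03). Of the brassinosteroid genes, the synthesis gene D2 stood at -1.02 and the transcription factor gene BZR1 at -1.16. The 4 that were higher were all type-A response regulators, which are induced by cytokinin: RR10 (0.99), RR9 (0.83), RR2 (0.65) and RR4 (0.63). The response regulator genes RR1 and RR6 of the same list were tested as well and were not among the higher ones. RR6 did not pass, except under 1 of the 14 alternatives.

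Aquaporin genes had 6 of 12 higher in osdreb2b and 3 lower (median 0.24; 6 and 2 without ossro1c replicate 3), and those of the vacuolar membrane differed most. TIP2;2 (LOC_Os06g22960) had 609, 558 and 599 CPM in osdreb2b libraries, against 85.3, 79.8 and 104 CPM in ossro1c libraries (log2 2.71, SE 0.10). TIP1;1 (LOC_Os03g05290) had 180.2, 166 and 170.4 CPM in osdreb2b libraries, against 36.01, 30.2 and 46.8 CPM in ossro1c libraries (log2 2.19), and TIP1;2 (LOC_Os01g74450) was 11.2-fold higher. All 3 tonoplast genes of the list were higher with no overlap. The plasma membrane genes parted: PIP2;7 (LOC_Os09g36930) had 841, 798 and 897 CPM in osdreb2b libraries, against 288, 273 and 377 CPM in ossro1c libraries (log2 1.44), PIP1;3 and PIP2;1 were lower at -0.92 and -0.62, and PIP1;2 did not pass (0.05, 95% interval -0.13 to 0.24).

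Sucrose and starch genes had 8 of 12 higher and 3 lower (median 0.61; 8 and 3 of 14 over all listed loci). SUS1 (LOC_Os03g28330), a sucrose synthase gene, had 362, 341 and 343 CPM in osdreb2b libraries, against 166, 164 and 198 CPM in ossro1c libraries (log2 0.99). The sugar exporters SWEET11 and SWEET14 went opposite ways. SWEET11 (LOC_Os08g42350) had 24.3, 24.08 and 22.8 CPM in osdreb2b libraries, against 4.65, 3.73 and 5.47 CPM in ossro1c libraries (log2 2.36), and SWEET14 (LOC_Os11g31190) had 14.1, 15.97 and 16.92 CPM, against 67.96, 68.9 and 86.9 CPM (log2 -2.25). The sucrose carriers parted: SUT1 and SUT4 were lower by log2 fold changes of -0.51 and -0.92, whereas SUT2 was higher. Nitrogen genes had 4 of 8 higher and 4 lower (median -0.16), and over all listed loci 8 of 14 higher and 6 lower (median 0.49). AMT1;1 (LOC_Os04g43070), an ammonium transporter gene, had 67.5, 60.2 and 70.3 CPM in osdreb2b libraries, against 247, 249 and 298 CPM in ossro1c libraries, and was 4.01-fold lower, and NIA1, a nitrate reductase gene, was at -0.99. Within one enzyme family the genes of cytosolic glutamine synthetase parted, GS1;1 lower at -0.99 and GS1;2 higher at 0.79, and the plastid form GS2 was higher by 0.49. Phosphate and iron genes had 6 of 8 higher and none lower (median 0.92; 7 higher without ossro1c replicate 3), and over all listed loci 8 of 12 were higher and 1 lower. SPX1 (LOC_Os06g40120), of phosphate sensing, had 539, 505 and 529 CPM in osdreb2b libraries, against 280.3, 266 and 309.8 CPM in ossro1c libraries (log2 0.88), and SPX2 and SPX3, of the same family, were higher by 0.96 and 1.47.

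Cell wall genes were lower in osdreb2b in 8 of 9 cases and higher in none (median -0.47), and over all listed loci 9 of 12 were lower and 2 higher. CESA4, CESA9 and CESA7, cellulose synthase genes of the secondary wall, were lower by log2 fold changes of -0.78, -0.68 and -0.42. CESA5 and CESA6, of the primary wall, stood at -0.63 and -0.47, and CESA1 and CESA3 at -0.30 and -0.28. In the CESA1 and CESA3 genes ossro1c replicate 3 was near or within the osdreb2b range. For CESA1 it was at 378 CPM, with 377 to 399 CPM in osdreb2b libraries, so the labels overlapped. CESA1 did not pass without any 1 of the other 5 libraries, and CESA3 did not pass without osdreb2b replicate 1 or 3 or ossro1c replicate 1 or 2. CESA8 overlapped and did not pass (-0.12, adjusted p = 0.28), but did without ossro1c replicate 3 (-0.23), where 9 of 9 were lower.

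Some loci were counted under one label alone. Among tested loci, 17 had at least 50 counts in every osdreb2b library and 0 in all 3 ossro1c libraries, and 12 had the reverse. They lie on 9 and 7 chromosomes. LOC_Os08g14195 and LOC_Os04g08630 had 2665 and 1947 counts summed over osdreb2b libraries and 0 in ossro1c libraries. LOC_Os09g02150 and LOC_Os11g11694 had 0 in osdreb2b libraries and 3241 and 3052 in ossro1c libraries. Set against a floor of 3 counts over the group, these are at least 1000-fold and 734-fold higher and at least 955-fold and 900-fold lower in osdreb2b; the floor covers counting error only. None of these loci was named in the lists. LOC_Os01g52240, singled out after its values were seen, had 473, 379 and 399 CPM in osdreb2b libraries and 0 in ossro1c libraries, and did not pass in the shared fit (adjusted p = 0.063). Reads of near-identical copies could be split in the counting, and whether these differences lie in the genome, in transcription or in the counting was not tested.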

How the data were processed

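Libraries came from TRIzol RNA and a SMARTER mRNA kit, per the labels' protocols. The authors deposited raw counts per locus; their tools, named without roles in the submitters' processing notes, include HISAT2 2.2.1 and fastp 0.23.4, besides StringTie 2.1.4 and DESeq2. No build, annotation or strand setting is given in the sources used here, so reads of antisense or overlapping genes cannot be told apart. Groups came from the genotype labels, and 0 columns were left unused.

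Counts were filtered (filterByExpr by group), TMM-scaled and modelled by robust quasi-likelihood in edgeR 4.0.16 under R 4.3.3, each group having 1 coefficient and all 9 libraries sharing the spread. P-values of the osdreb2b and ossro1c contrast were adjusted by Benjamini-Hochberg over 26112 loci, with a threshold of 0.05. DESeq2 1.42.0 was an alternative. Levels are TMM-scaled CPM, which do not allow for length, so they are compared between libraries and not between genes. Each SE was taken as the size of the log2 fold change over the square root of F.

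Members and lists were chosen with earlier results of these data known. Locus and name pairs come from knowledge of the rice genome; 298 of 453 names were found in the reference gene table (assembly ASM3414082v1) on the right chromosome within 1 Mb (10 by aliases added after the table was seen). OsSRO1c was not found and is kept as the series names it. Named are the study genes, the 10 highest and 10 lowest named genes past the threshold with at least 5 CPM and no overlap, up to 4 per list with the largest change, and the most abundant not passing; further members were named after their values were seen. The fit was tested on simulated data with few changed loci, evenly split by direction. That test does not cover the scaling where many loci differ, as here. Replicate numbers do not pair the samples. Replicate pairs differed beyond sampling noise (chi-square per degree of freedom 10.7 to 84.4), so none was counted as a duplicate. Alternatives were other scalings, filters, tools, sample sets and a replicate block. The result of 1 listed gene is not reported here.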

Additional observations from a re-analysis of the deposited data

How the results depend on the processing

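Both label genes kept their direction and passed under all 14 alternatives, with OsSRO1c between -1.81 and -1.57 and OsDREB2B between 2.00 and 2.30 on the log2 scale. The 70 recomputed counts of loci (either direction, higher, lower, and by at least 1 on the log2 scale) stayed within 1.5 times their reported values. With 1 library left out, 10713 to 13097 loci passed, 5234 to 6625 of them higher and 5374 to 6472 lower. With the scaling, raw library totals moved the split most, as given above; upper-quartile scaling gave 45.5% higher and a filter at 1 CPM in 3 libraries 43.3%. DESeq2 called 12814 loci, with 4 adjusted p-values not given, and 12059 of the 12147 reported loci were among them in the same direction. A fit with the replicate number as a block called 11821 loci, 5888 higher and 5933 lower. The numbers do not pair the samples: deviations of same-numbered libraries correlated at 0.00339, -0.00913 and 0.0221, and the block ended the call of 1 of 275 named genes, SAPK6. Of those 275 genes (without the label genes), 221 kept their call throughout, 27 lost it and 27 gained it under at least 1 alternative, and 0 that passed changed sign. Without the filter on low counts 11830 loci passed, and on the 6 mutant libraries alone 11304.

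At low levels depth limits the comparison: of 6479 loci under 1 CPM, 408 were higher and 740 lower at a median absolute log2 fold change of 0.87, whereas of loci at 10 to 100 CPM 62.5% passed at a median of 0.42. The level of 1 gene cannot be set beside that of another, as lengths were not used.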

Other observations

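The share of loci past the threshold ran from 40.0% on chromosome 12 to 50.4% on chromosome 3. On chromosome 1, 43.6% of the loci past the threshold were higher in osdreb2b, with 31 higher and 81 lower by at least 3 on the log2 scale. On chromosome 12, 55.9% were higher, with 32 higher and 25 lower by as much. These shares were the lowest and the highest of any chromosome. Over all loci past the threshold 49.2% were higher, with 386 higher and 473 lower by at least 3. With raw library totals that share was 35.3%, and the split by chromosome was not recomputed under other scalings. Without ossro1c replicate 3, 45.5% were higher on chromosome 1, with 47 higher and 76 lower by at least 3, and 57.0% on chromosome 12, with 34 higher and 23 lower.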
